A study of Rattus with 9 samples.

Results

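The 10 genes described here encode synaptic scaffold proteins: Dlg4, Dlg2 and Mpp2, which are membrane-associated guanylate kinase (MAGUK) scaffolds, their partners Dlgap1, Dlgap2, Dlgap3 and Dlgap4, and the deeper scaffolds Shank1, Shank3 and Homer1. They were taken by symbol from a table of 17378 genes, and all 10 have a row in it. Dlgap3 and Mpp2 were chosen by their p-values, which stood at ranks 8 and 13 among the genes lower after infarction in these same libraries. The other 8 were added as relatives and partners of that pair. The comparison of infarcted and sham rats is therefore given for the members as a description, and no test of it is offered for them.

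Poly-A RNA was sequenced from thoracic dorsal root ganglia, labelled T1 to T4 in the sample sheet, of SD rats 8 weeks after coronary ligation (myocardial infarction, MI, n = 5) or after sham surgery (Sham, n = 4). The deposited columns name the MI group CHF. Each library came from 1 rat, and the sources used here give neither infarct size nor age. Library totals were 6033134 to 6861355 counts in MI and 5656582 to 6313128 in sham rats.

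At excitatory synapses of the brain, Dlg4 (also called PSD95) and Dlg2 bind receptors and channels at the membrane through PDZ domains. Their guanylate kinase-like domain binds Dlgap proteins, Dlgap proteins bind Shanks, and Shanks bind Homer proteins, which reach metabotropic glutamate receptors and calcium-release channels. Cell bodies of sensory neurons receive few synapses themselves. The proteins made there can be carried along the axons, and in mouse sensory neurons Shank3 is known to act on the heat- and capsaicin-gated channel Trpv1.

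The tissue label was checked against marker genes. Sensory neuron markers were abundant, with a summed level of 25729 to 29345 CPM (counts scaled to library size) in MI and 26036 to 27172 CPM in sham ganglia over the 9 markers in the table. Of 8 spinal cord markers, Olig2 and Slc32a1 were at 0 counts in all 9 libraries, Chat did not exceed 1 count, and Mog and Olig1 did not exceed 2. The summed spinal cord list, at 13.6 to 54.2 CPM in MI rats, against 19.4 to 44.2 CPM in sham ganglia, came almost wholly from Gfap and Aqp4.

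The scaffold genes spanned a wide range of levels per gene length, given here as the authors' RPKM, a read measure divided by gene length and depth. Dlg4 was the most abundant, at 20.5 ± 0.628 RPKM (SD, n = 5) in MI and 20.4 ± 1.04 RPKM (SD, n = 4) in sham ganglia, a mean above that of 75.7% of the 11711 genes tested. Dlg2 followed with 11.1 ± 1.08 RPKM in MI and 11.0 ± 0.352 RPKM in sham ganglia. Dlgap3 and Dlgap4 came next, near the middle of all tested genes, above 47.6% and 45.8% of them.

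In the lower part of the order were Dlgap1, Homer1 and Mpp2 at overall means of 3.68, 3.45 and 2.88 RPKM. Shank3 and Shank1 followed at 2.16 and 1.26 RPKM, and Dlgap2 was nearly undetected at 0.149 RPKM. Neighbours in this order were compared within each library on the log2(RPKM + 0.1) scale, and 6 of the 9 neighbour pairs differed past an adjusted p of 0.05 (two-sided exact sign-flip permutation test over 9 libraries, Benjamini-Hochberg over the 9 pairs). Dlg4 exceeded Dlg2 in 9 of 9 libraries, with a ratio of means of 1.85 (exact permutation p = 0.00391, the smallest that 9 libraries can give, adjusted p = 0.00703). Dlg2 exceeded Dlgap3 by 1.47 times, Dlgap4 exceeded Dlgap1 by 1.91 times and Shank3 exceeded Shank1 by 1.72 times, each in 9 of 9 libraries and with that same adjusted p. Gene length enters every library alike, so these p-values do not cover an error in it. By mean CPM, without gene length, Dlgap4 lay below Dlgap1, at 37.7 against 40.9 in MI and 39.7 against 39.8 in sham ganglia. Mpp2 likewise lay below Shank3, at 8.84 against 24.5 in MI and 12.5 against 27.0 in sham ganglia. The other pairs past the threshold kept their order.

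The other 3 neighbour pairs did not differ beyond their spread. Dlgap3 was above Dlgap4 in 6 of 9 libraries (exact permutation p = 0.0664, adjusted p = 0.0742), with a ratio of mean RPKM of 1.01 in MI and 1.13 in sham ganglia. Dlgap1 was above Homer1 in 8 of 9 libraries (exact permutation p = 0.0742, adjusted p = 0.0742). Homer1 was above Mpp2 in 5 of 9 libraries (exact permutation p = 0.0625, adjusted p = 0.0742), with a ratio of mean RPKM of 1.48 in MI and 0.956 in sham ganglia. Homer1 was the higher of that pair in 5 of 5 MI rats, and Mpp2 was the higher in 4 of 4 sham rats, a description only since Mpp2 was chosen on this contrast. In Sham 2 the pair was nearly level, with Homer1 at 3.589 and Mpp2 at 3.591 RPKM. Gene lengths behind the RPKM values are the authors' own and are not given in the sources used here.

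**Figure D1:**
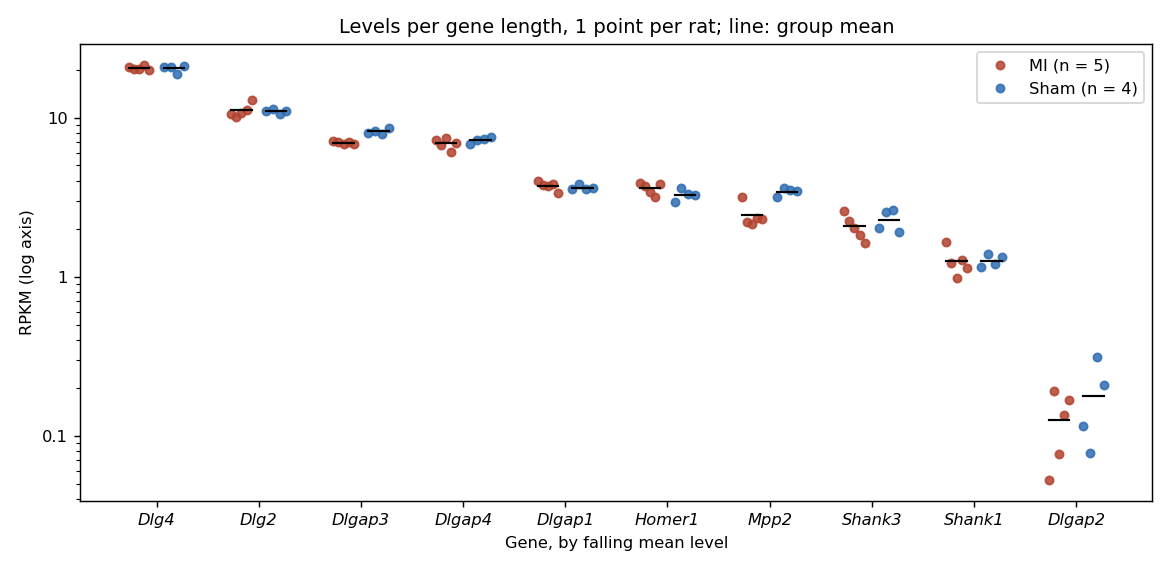
RPKM of each scaffold gene (log axis), 1 point per rat, MI to the left of sham for each gene, with a line at each group mean. Dlg4 sits near 20.4 RPKM in both groups, and the highest Dlgap2 value in the 9 libraries is 0.311 RPKM.

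Among the MAGUK scaffolds, Dlg4 and Dlg2 had nearly the same mean level in both groups, while Mpp2 was lower in MI in 4 of 5 rats. Levels per rat are given in CPM, with library sizes scaled by the trimmed-mean method of edgeR (TMM). In MI ganglia Dlg4 had 104.9, 101.0, 101.8, 109.6 and 101.1 CPM in rats 1 to 5, and in sham ganglia 106.0, 104.7, 95.6 and 108.2 CPM in rats 1 to 4. The ranges overlapped, with the highest value in MI 4 and the lowest in Sham 3, and the log2 fold change of MI over sham was 8.04e-04 (SE 0.04). With 595 to 689 reads per library, Dlg4 had the finest counting precision of the set.

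Dlg2, a close relative of Dlg4 that also clusters potassium channels, had 52.0, 49.3, 53.1, 55.8 and 63.5 CPM in MI rats, against 55.0, 55.5, 51.7 and 54.5 CPM in sham ganglia. The MI rats spread more widely than the sham rats, on both sides of them, and MI 5 was the highest of all 9. Its log2 fold change was 0.02 (SE 0.07).

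Mpp2, a palmitoylated MAGUK with a PDZ, an SH3 and a guanylate kinase-like domain, had 11.59, 7.88, 7.85, 8.49 and 8.36 CPM in MI rats, against 11.58, 12.97, 12.80 and 12.58 CPM in sham ganglia. Rats MI 2 to MI 5 lay below every sham rat. MI 1 lay level with the lowest sham rat, so the groups overlapped by that pair alone. The group means were 8.84 ± 1.56 CPM in MI rats, against 12.5 ± 0.622 CPM in sham ganglia (SD, n = 5 and 4), a log2 fold change of -0.50 (SE 0.12). Without MI 1 the log2 fold change was -0.62. It rests on few reads, 48 to 82 per library, and the standard error from counting alone, 0.12 on the log2 scale, was as large as that between rats.

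**Figure D2:**
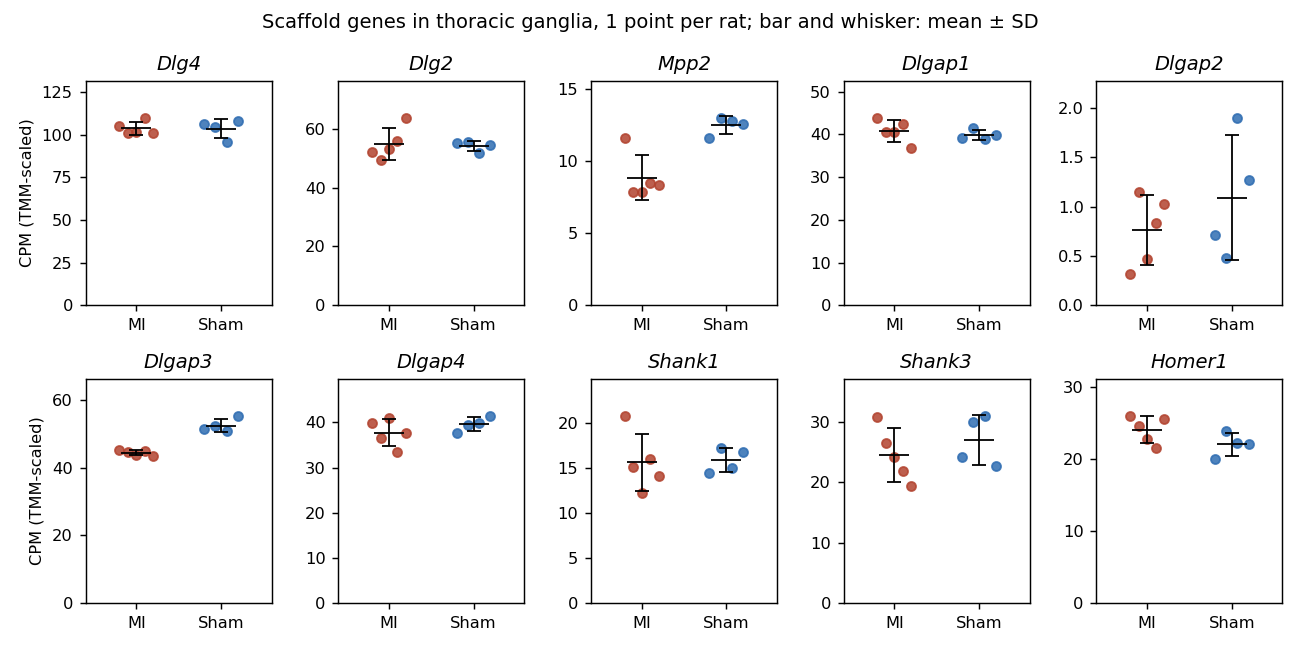
TMM-scaled CPM of the 10 scaffold genes, 1 point per rat, MI left of sham in each panel, with the mean and SD of each group; each panel has its own axis from 0. The Dlgap3 points do not overlap between groups, and the Mpp2 points overlap only through MI 1 at 11.59 CPM and Sham 1 at 11.58 CPM.

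In the Dlgap family, Dlgap3 was lower in MI, while the MI values of Dlgap1 and Dlgap4 overlapped those of the sham rats. Dlgap3, whose protein links MAGUKs to Shanks and whose loss in mice causes compulsive grooming, had 45.4, 44.7, 43.8, 45.0 and 43.4 CPM in MI rats, against 51.5, 52.3, 50.7 and 55.3 CPM in sham ganglia. All 5 MI rats lay below all 4 sham rats. The means were 44.5 ± 0.813 CPM in MI rats, against 52.5 ± 1.99 CPM in sham ganglia (SD, n = 5 and 4), a log2 fold change of -0.24 (SE 0.03), a fold change of 0.847. In these whole-ganglion samples, fewer cells of a type and less RNA per cell cannot be told apart.

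The Dlgap3 values lay closer together than read counting alone gives on average. Their coefficient of variation was 1.83% in MI and 3.80% in sham ganglia, against 5.79% from counting at its mean of 298.6 reads. The standard error from counting alone was 0.06 on the log2 scale, larger than the SE of 0.03 between rats. Leaving out any 1 library gave log2 fold changes between -0.26 and -0.22.

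Dlgap4 had 39.9, 36.5, 41.0, 33.5 and 37.7 CPM in MI rats, against 37.8, 39.5, 40.0 and 41.4 CPM in sham ganglia. The groups overlapped, with MI 4 the lowest of all 9, and the log2 fold change was -0.07 (SE 0.06). Dlgap1, the founding member once named GKAP, had 43.8, 40.6, 40.7, 42.5 and 36.8 CPM in MI rats, against 39.2, 41.4, 38.9 and 39.8 CPM in sham ganglia. Its highest and lowest values were both in MI, and its log2 fold change was 0.03 (SE 0.05).

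Dlgap2 had 2, 7, 3, 5 and 7 reads in MI and 4, 3, 12 and 8 reads in sham ganglia. It fell below the filter on low counts and was the 1 member of the 10 that was not tested. These counts are given with no comparison of the groups.

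Set side by side per gene length, Dlgap3 held 37.8% to 41.0% of the summed RPKM of the 4 Dlgap genes in MI and 41.5% to 43.2% in sham ganglia. Dlgap4 held 35.6% to 41.3% in MI and 37.0% to 38.2% in sham ganglia, and Dlgap1 held 19.6% to 22.6% in MI and 18.1% to 19.6% in sham ganglia. The sum of these 4 genes was 17.7 ± 0.58 RPKM in MI and 19.2 ± 0.605 RPKM in sham ganglia (SD, n = 5 and 4). Neither the sum nor the shares include Dlgap5, which had 1.73 ± 0.278 RPKM in MI and 1.98 ± 0.311 RPKM in sham ganglia. All these shares and the sum of the 4 genes contain the Dlgap3 values, and Dlgap3 was chosen on this contrast. They are thus a description and no further support for a difference. Without Dlgap3 the sum was 10.7 ± 0.545 RPKM in MI and 11.0 ± 0.369 RPKM in sham ganglia, with overlapping ranges.

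**Figure D3:**
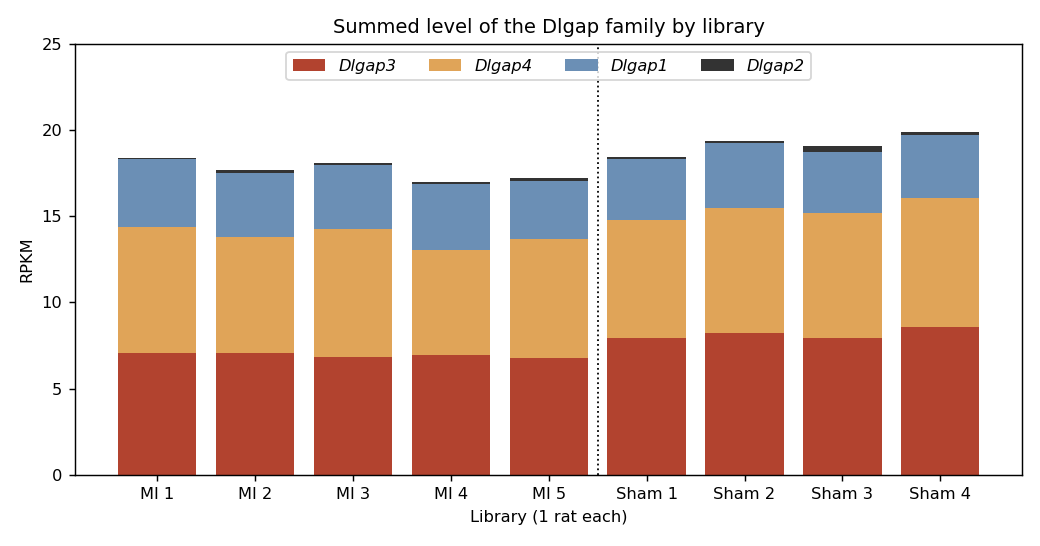
Stacked RPKM of the 4 Dlgap genes of the scaffold set (without Dlgap5) in each library, MI rats left of the dotted line and sham rats right of it. The Dlgap3 segment is shorter in each of the 5 MI rats, and Dlgap2 is barely visible.

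The Shanks, large scaffolds that join the Dlgap layer to Homer and the actin skeleton, varied most between rats of 1 group among the 9 genes tested. Shank3 had 30.9, 26.4, 24.2, 21.8 and 19.4 CPM in MI rats, against 24.2, 30.0, 31.0 and 22.6 CPM in sham ganglia. Both groups spread over nearly the same interval. The log2 fold change was -0.14 (SE 0.16), which became -0.24 without MI 1 and -0.06 without MI 5, and the coefficient of variation of 18.0% in MI and 15.4% in sham ganglia exceeded the 7.92% expected from counting.

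Shank1 had 20.8, 15.1, 12.3, 16.0 and 14.1 CPM in MI rats, against 14.4, 17.2, 15.0 and 16.7 CPM in sham ganglia. Its highest value, in MI 1, and its lowest, in MI 3, were both in the MI group. The log2 fold change was -0.02 (SE 0.15), which became -0.15 without MI 1 and 0.05 without MI 3. Its coefficient of variation was 20.4% in MI and 8.47% in sham ganglia, against 10.1% expected from counting. Its spread among sham rats thus did not exceed counting error.

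Homer1, whose long forms tether Shanks to receptors and whose short activity-induced form uncouples them, had 25.9, 24.5, 22.8, 21.5 and 25.5 CPM in MI rats, against 20.0, 23.9, 22.1 and 22.0 CPM in sham ganglia. The groups overlapped, with Sham 1 the lowest of all 9, and the log2 fold change was 0.13 (SE 0.07). Counts per gene do not separate the long and short forms.

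Across the whole table, the edgeR likelihood-ratio test called 0.0171% of genes at a Benjamini-Hochberg adjusted p of 0.05, namely 2 of 11711. It called 0 of the 9 scaffold genes tested. Without MI 1, the MI rat with the highest Mpp2 level, it called 8 genes in all, and 1 of them was Mpp2. Neither count of scaffold genes is support for a difference, since Dlgap3 and Mpp2 were chosen on this contrast. The groups did not overlap for 1 of the 9, Dlgap3, and for 1.74% of all tested genes; with all MI rats below all sham rats they did so for 0.905%. Of the 9, 5 (6 with RLE scaling) had a negative log2 fold change, against 49.2% of all tested genes, and their median was -0.02, against 0.00175 over all genes. These counts use the contrast through which Dlgap3 and Mpp2 were chosen. In the authors' deposited table of the same contrast, which has rows for 5 of the 10 genes, the linear fold change of MI over sham was 0.706 for Mpp2 and 0.846 for Dlgap3. Neither passed an adjusted p of 0.05 in the authors' edgeR test (0.360 for Mpp2 and 0.595 for Dlgap3). Those values come from the same libraries and are no separate support.

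Markers of other cell types were read in the same libraries, and 0 of them passed the likelihood-ratio test, so the directions given are those of the log2 fold changes. Of the 6 smooth muscle and pericyte markers 5 were higher in MI, and their summed level was 184 to 278 CPM in MI rats, against 140 to 195 CPM in sham ganglia. Of the 7 macrophage markers 6 were higher in MI, with a sum of 167 to 241 CPM in MI rats, against 163 to 213 CPM in sham ganglia. All 5 endothelial markers were higher, with a sum of 135 to 193 CPM in MI rats, against 133 to 160 CPM in sham ganglia. All 7 Schwann cell markers were lower in MI, with a sum of 9149 to 14636 CPM in MI rats, against 11043 to 13933 CPM in sham ganglia. All 5 skeletal muscle markers were lower, with a sum of 16.7 to 78.9 CPM in MI rats, against 22.3 to 97.8 CPM in sham ganglia, and so were 4 of the 6 satellite glia markers, with a sum of 5376 to 6206 CPM in MI rats, against 5360 to 6205 CPM in sham ganglia. None of these lists held a marker at 0 in all libraries, and their part in the values of Dlgap3 and Mpp2 was not tested.

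**Figure D4:**
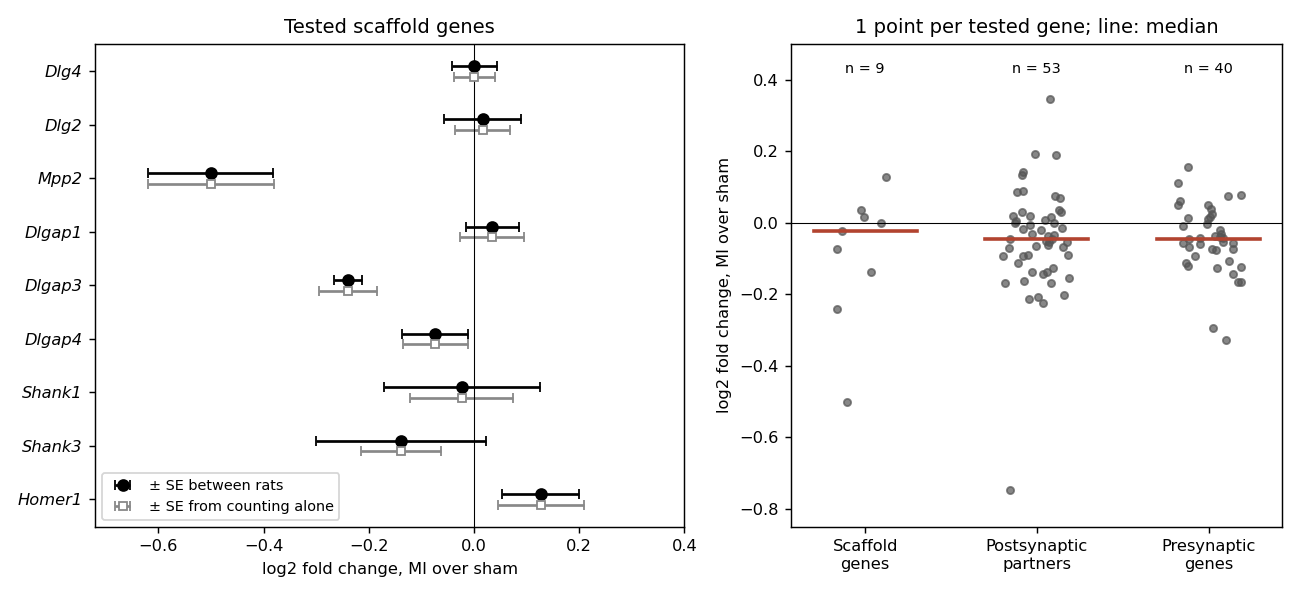
Left, log2 fold change of MI over sham for the 9 tested scaffold genes, with the SE between rats (filled) and the SE from counting alone (open). Right, the same quantity for each tested gene of the scaffold set, the postsynaptic partner list and the presynaptic list, with a line at the medians of -0.02, -0.05 and -0.04.

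Variation within groups was not shared evenly among the rats. MI 1 was the highest MI rat for 6 of the 9 tested genes and lay above the MI mean for 8. The size was largest for Shank1, Mpp2 and Shank3, which in MI 1 stood 0.42, 0.39 and 0.35 above the MI mean of log2 CPM. In Dlgap3 the same rat stood only 0.03 above the MI mean. Lying above the group mean for most of these genes was not particular to MI 1. Sham 4 lay above the sham mean for 8 of the 9, and Sham 2 for 7. Sham 2 was the highest sham rat for 5. MI 1 also had the largest share of reads in introns, 5.47%, against 4.79% to 5.11% in the other MI rats and 4.86% to 5.01% in sham rats. It had the lowest summed level of the 7 Schwann cell markers, 9149 CPM, and the highest of the spinal cord list, 54.2 CPM. The part of these measures in the values of MI 1 was not tested.

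**Figure D5:**
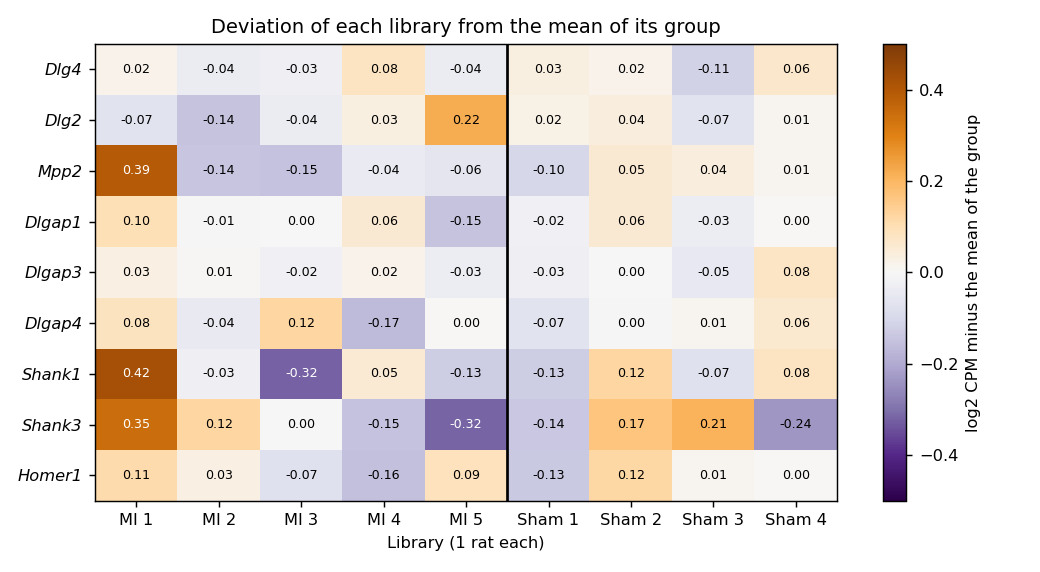
Deviation of log2 CPM from the mean of the group for each tested scaffold gene (rows) in each library (columns), MI left of the black line and sham right of it. MI 1 stands out in Shank1, Mpp2 and Shank3, at 0.42, 0.39 and 0.35, and Dlgap3 is pale in all 9 libraries.

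Within-group patterns were also compared by the root mean square difference of log2 CPM, centred on the group means and scaled to unit SD, over 9 libraries and 11540 other genes. Among the genes closest to Mpp2 were Ebf1 at 0.307 and Zfp653 at 0.307, which became 0.454 and 0.594 without MI 1. Shank1 was the closest scaffold gene to Mpp2, at 0.485 and rank 38. That likeness rested on MI 1: without it the difference was 0.865 and the rank 913. For Dlgap3 the closest genes were Btbd3 at 0.291, Nrsn2 at 0.296 and Hipk3 at 0.366, and the closest scaffold gene was Dlg4 at 0.778 and rank 332. The coefficient of variation of Dlgap3, 1.83% in MI and 3.80% in sham ganglia, was below the 5.79% from counting. Its scaled pattern therefore cannot be told apart from counting error. How close the nearest of 11540 genes comes by chance was not tested. The difference between Dlgap3 and Mpp2 was 1.15, which put Mpp2 at rank 2507 from Dlgap3, and without MI 1 it was 1.31 and the rank 4554.

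The relatives of the scaffold genes showed a comparable spread of levels. In the Mpp family, Mpp1 was the most abundant at 25.3 ± 3.59 RPKM in MI and 25.2 ± 1.36 RPKM in sham ganglia. Mpp6 had 11.9 ± 1.23 RPKM in MI and 11.8 ± 1.06 RPKM in sham ganglia, and Mpp5, a polarity scaffold, 10.7 ± 0.567 RPKM in MI and 10.4 ± 0.56 RPKM in sham ganglia. Mpp7 had 4.36 ± 0.479 RPKM in MI and 4.07 ± 0.658 RPKM in sham ganglia (SD, n = 5 and 4 throughout). Mpp2, at 2.43 ± 0.428 RPKM in MI and 3.43 ± 0.19 RPKM in sham ganglia, thus stood below these 4, and Mpp3 stood at 1.46 ± 0.23 RPKM in MI and 1.64 ± 0.281 RPKM in sham ganglia.

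Of the other Dlg genes, Dlg1 had 6.46 ± 0.527 RPKM in MI and 6.69 ± 0.812 RPKM in sham ganglia, and Dlg3 1.22 ± 0.303 RPKM in MI and 1.36 ± 0.20 RPKM in sham ganglia. Shank2 stood close to Shank3, at 2.03 ± 0.254 RPKM in MI and 2.15 ± 0.401 RPKM in sham ganglia. Homer2 and Homer3 were near Homer1, at 3.49 ± 0.432 and 3.72 ± 0.803 RPKM in MI and at 3.84 ± 0.225 and 3.89 ± 0.337 RPKM in sham ganglia. None of these relatives passed the threshold in the likelihood-ratio test.

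A list of 65 symbols of postsynaptic partners (Mpp5 and Mpp6 also under their newer names), among them other MAGUKs, neuroligins, NMDA receptor subunits, calmodulin kinases and adhesion proteins of the Cadm family, had 60 in the table and 53 tested. Of these, 0 passed in either direction, with 3 under an unadjusted p of 0.05 by the likelihood-ratio test, 3 by the quasi-likelihood test, 0 by DESeq2 and 4 by limma-voom. Over all tested genes 4.64%, 5.14%, 3.26% and 5.19% lay under that p in these 4 tests, in the same order. Negative log2 fold changes were found in 36 of the 53 (67.9%), against 49.2% of all tested genes. The median was -0.05, against 0.00175 over all genes. The list was chosen with earlier results of these data known, and all its genes were read in the same 9 libraries. The share and the median are thus a description only. The member of smallest p with a negative value was Grin2b, an NMDA receptor subunit of low level, at log2 -0.75 (SE 0.33, edgeR likelihood-ratio adjusted p = 0.9996). That with a positive value was Prickle2, a postsynaptic planar polarity protein, at log2 0.13 (SE 0.08, edgeR likelihood-ratio adjusted p = 0.9996).

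Grin2b rested on 5 to 14 reads per library in MI and 9 to 19 in sham rats, with overlapping groups. The obligatory NMDA receptor subunit Grin1 was far more abundant, at 17.6 ± 1.06 RPKM in MI and 17.9 ± 1.15 RPKM in sham ganglia. Cadm1, a synaptic adhesion protein known to bind Mpp2 in brain, had 48.6 ± 4.80 RPKM in MI and 52.9 ± 2.87 RPKM in sham ganglia, a log2 difference of -0.13 (SE 0.08, edgeR likelihood-ratio adjusted p = 0.9996).

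The presynaptic list, with vesicle, release and active zone genes, had all 40 symbols tested and 0 past the threshold, with 3 under an unadjusted p of 0.05 by each of the likelihood-ratio, quasi-likelihood, DESeq2 and limma-voom tests, against those same shares over all genes. Negative log2 fold changes were found in 28 of the 40 (70%), against 49.2% of all tested genes. The median was -0.04, against 0.00175 over all genes. As for the postsynaptic list, the share and the median are a description only. Unc13b, a vesicle priming protein, had the smallest p of those with a negative value, at log2 -0.33 (SE 0.08, edgeR likelihood-ratio adjusted p = 0.892). It had 10.3, 11.3, 11.0, 11.8 and 11.6 CPM in MI rats, against 16.7, 13.1, 13.0 and 13.7 CPM in sham ganglia. All 5 MI rats thus lay below all 4 sham rats. The groups did not overlap for 1 of the 40 presynaptic and 0 of the 53 postsynaptic genes, against 1.74% of all tested genes. All MI rats lay below all sham rats for 0.905% of all tested genes. With library totals in place of TMM, 34 of the 53 postsynaptic and 28 of the 40 presynaptic genes had negative values, against 48.5% of all tested genes.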

How the data were processed

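The authors trimmed 75 bp reads with cutadapt, aligned them to rn6 with STAR 2.3.0 and summarized them per gene against Partek 6.6 annotations, per the series' design text; demultiplexing used bcl2fastq 2.16.0.10, per the submitters' processing notes. The deposited counts are reads per gene that the authors rounded from deposited estimated counts, per the file headers. The deposited RPKM values, and the deposited TMM-scaled CPM, log2 CPM, fold changes and p-values of the authors' edgeR table, are theirs, as are the percent of reads by feature and the RNA integrity score.

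Here, counts were filtered with filterByExpr (11711 of 17378 genes kept, 9 of the 10 members), scaled by TMM and fitted with the likelihood-ratio test of edgeR 4.0.16 (R 4.3.3, tagwise dispersions, Benjamini-Hochberg over all tested genes, threshold 0.05). That is the test the series' design text names. CPM uses TMM-scaled library sizes. The SE printed with a log2 fold change pools the variance of log2 CPM (prior count 2) within both groups. The SE from counting alone comes from the summed reads of each group and covers counting error only.

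Results were recomputed by quasi-likelihood, by DESeq2 1.42.0 and by limma-voom (limma 3.58.1), and with other dispersions, scalings, filters and thresholds, with unrounded counts, with limma at 2 RPKM pseudocounts (0.1 and 1), with a replicate block and each library left out. The members and gene lists were chosen with earlier results of these data known. The rule named all members, up to 4 list genes past the threshold or else that of smallest p in each direction, and the 3 genes nearest in within-group pattern to Dlgap3 and to Mpp2. Of the genes so named, 2 are not reported here. The relatives, Grin1 and Cadm1 were named after their values were seen. All 10 symbols equal a current RefSeq symbol (GRCr8), a build other than that of the files, so no coordinates are given. In that table Dlg2 is also a synonym of Mpp2, and the pair is told apart by symbol. No source used here gives the strand setting of the counting, and antisense reads may be included. The fit was tested on simulated data whose changes were larger than those of Dlgap3 and Mpp2, so recovery at their sizes was not tested.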

Additional observations from a re-analysis of the deposited data

Results flagged for a closer look

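Mpp2 in MI 1 stood at 11.59 CPM, against 7.85 to 8.49 CPM in the other 4 MI rats, and was picked out because its gap to the next rat was large for the range of the group. It was the 1 library picked among 28 groups of rats checked, where chance picks about 1 in 20.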

How the results depend on the processing

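The count of 2 genes past the threshold became 0 with the quasi-likelihood test (602 genes under an unadjusted p of 0.05), 0 with limma-voom (608), 0 with limma on log2(RPKM + 0.1) (594) and 0 on log2(RPKM + 1) (613). It became 70 with 1 common dispersion, 6 with no filter, 5 at a threshold of 0.10 and 12 with the replicate block. Without 1 library it lay between 2 and 8: 8 without MI 1 or without Sham 3, 6 without MI 5 and 4 without MI 4. The cause of these shifts was not tested. The replicate numbers did not pair the rats: same-numbered libraries correlated at -0.14 to 0.09 across genes, and no MI library was closest to the sham library of its number. Both synaptic lists had 0 calls under all 22 alternatives.

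Over 21 alternatives Dlgap3 ranged from -0.26 to -0.21 and Mpp2 from -0.62 to -0.37 on the log2 scale. Dlgap1, Dlgap4, Shank3 and Homer1 also kept their sign, while Dlg2 kept it in 18, Shank1 in 17 and Dlg4 in 15. The count of 6 separated neighbour pairs was 0 in MI rats alone and 0 in sham rats alone, where the smallest possible p is 0.0625 and 0.125, and 6 to 7 without 1 library. Homer1 over Mpp2 turned to a log2 difference of -0.0644 in sham rats alone. Depth limits Dlgap2, Mpp2 and Shank1 most.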
